A study of Homo sapiens with 2 samples.

Results

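Long noncoding RNA (lncRNA) promoters that lie away from coding genes were examined in the open chromatin of CAMA-1, an established luminal, estrogen receptor-positive breast cancer cell line. They were defined as autosomal GENCODE release 44 genes of the type lncRNA whose most 5′ transcription start site (TSS) is more than 5 kb from every protein-coding TSS, called isolated lncRNA genes here. Of 18390 autosomal lncRNA genes, 12191 were isolated. A TSS was called open when peaks of both replicates that overlapped each other lay within 1 kb of it. This held for 3458 isolated genes, or 28.4% (95% Wilson confidence interval 27.6 to 29.2%). Their peaks merged into 3914 regions, of 209570 autosomal regions with a peak in both replicates. As a background, 12.8% of all autosomal bases more than 5 kb from a coding TSS were as near to such a peak.

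The study profiles cell-free chromatin of cultured cells and relates it to where their chromatin is accessible. Accessibility was read with ATAC-seq, a method that cuts and tags DNA left free by nucleosomes with the transposase Tn5. There is 1 group of 2 biological replicates of 50000 untreated cells of this single line, so conditions cannot be compared, and regions are not replicates. Values are therefore given per replicate, or as mean ± SD (n = 2), without a test.

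An lncRNA is transcribed, usually by RNA polymerase II, and acts as an RNA or by its transcription rather than as a template for a protein. Some lncRNAs build nuclear bodies, some silence or activate neighbouring genes, and some are precursors of microRNAs or small nucleolar RNAs (snoRNAs). Most coding promoters lie in CpG islands, stretches rich in the dinucleotide CG, whereas many lncRNA promoters do not, and lncRNAs are known for expression in few cell types.

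Promoters of 5 isolated lncRNA genes show the sequences on which the comparisons turn. Each run is read 5′ to 3′ on the gene's own strand of hg38, from 250 bases before the GENCODE TSS to 50 bases from the TSS on, and capitals mark each CG. NEAT1 (chr11:65422524-65422823, forward strand) and DANCR (chr4:52712075-52712374, forward strand) are shown as CpG-rich promoters that were open. MIR155HG (chr21:25561560-25561859, forward strand) is a CpG-rich promoter without a peak.
NEAT1: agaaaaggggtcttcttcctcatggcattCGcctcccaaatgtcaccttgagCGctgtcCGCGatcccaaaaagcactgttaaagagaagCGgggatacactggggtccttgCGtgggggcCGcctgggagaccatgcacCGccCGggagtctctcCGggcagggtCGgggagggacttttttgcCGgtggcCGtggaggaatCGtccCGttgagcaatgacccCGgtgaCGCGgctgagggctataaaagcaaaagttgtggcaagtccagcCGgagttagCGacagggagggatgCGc
DANCR: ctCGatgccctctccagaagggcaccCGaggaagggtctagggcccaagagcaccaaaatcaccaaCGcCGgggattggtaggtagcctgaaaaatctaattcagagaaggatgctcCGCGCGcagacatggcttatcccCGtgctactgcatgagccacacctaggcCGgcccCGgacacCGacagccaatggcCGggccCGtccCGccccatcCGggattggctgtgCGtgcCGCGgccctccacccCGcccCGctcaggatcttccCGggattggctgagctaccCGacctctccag
MIR155HG: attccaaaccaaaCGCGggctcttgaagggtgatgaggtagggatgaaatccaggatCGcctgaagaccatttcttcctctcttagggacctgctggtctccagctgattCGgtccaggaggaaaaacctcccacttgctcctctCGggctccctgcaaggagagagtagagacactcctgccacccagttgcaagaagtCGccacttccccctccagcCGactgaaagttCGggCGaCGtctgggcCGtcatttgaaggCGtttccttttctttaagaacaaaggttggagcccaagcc
NEAT1 has 21 CG in these 300 bases, DANCR 22 and MIR155HG 12, where the median was 23 for open coding promoters. DANCR carries 2 matches to the GC box (GGGCGG, both strands), which binds the SP factors, and 4 to the CCAAT box (CCAAT, both strands), which binds NF-Y, and NEAT1 carries 1 GC box. MIR155HG has neither.

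LINC01843 (chr5:134506302-134506601, forward strand) and TALAM1 (chr11:65507383-65507682, reverse strand) are shown since they had the strongest regions of all isolated lncRNA genes with few CG.
LINC01843: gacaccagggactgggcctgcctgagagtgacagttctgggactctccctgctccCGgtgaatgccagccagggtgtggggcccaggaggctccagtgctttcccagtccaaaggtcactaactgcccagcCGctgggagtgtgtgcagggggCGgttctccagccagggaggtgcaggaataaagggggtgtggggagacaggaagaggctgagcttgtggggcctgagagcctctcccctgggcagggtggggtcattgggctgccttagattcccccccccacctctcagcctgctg
TALAM1: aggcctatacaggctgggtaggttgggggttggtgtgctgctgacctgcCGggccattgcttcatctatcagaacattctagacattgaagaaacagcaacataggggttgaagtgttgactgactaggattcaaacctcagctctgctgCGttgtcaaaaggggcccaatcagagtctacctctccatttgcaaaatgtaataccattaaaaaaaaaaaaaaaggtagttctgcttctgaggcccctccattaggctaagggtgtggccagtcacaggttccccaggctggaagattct
LINC01843 holds 3 CG and TALAM1 holds 2, fewer than either open CpG-rich promoter above. The median over all 3458 open isolated promoters was 5 and over the 8733 others 3. LINC01843 carries 1 GC box and 1 CCAAT box and TALAM1 carries 1 CCAAT box. No match to the CTCF motif (CCNCNAGNNGGC) or to the estrogen response element (GGTCANNNTGACC) was found in any of the 5 windows, which says only that these letters are not in them.

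Isolated lncRNA TSSs were open less often than coding TSSs and less often than lncRNA TSSs near coding genes. Of 19111 coding TSSs, 13893 were open, or 72.7% (72.1 to 73.3%). Of the 6199 lncRNA TSSs within 5 kb of a coding TSS, 4104 were open, or 66.2% (65.0 to 67.4%). A peak within 1 kb of such a TSS can be that of the coding promoter, and these peaks were not separated. Over all autosomal genes, 43.2% of TSSs were open. The intervals of the 3 groups did not overlap. Of the 8733 isolated TSSs that were not open, 8212 had no peak in either replicate, 189 had one in replicate 1 only, 316 in replicate 2 only, and 16 had peaks of both that did not overlap. The call thus rested on the second replicate in few cases. For 437 of these genes another annotated TSS of the same gene was open, so that 31.9% of isolated genes had an open TSS when all of a gene's TSSs were counted. The list of peaks holds only what passed the threshold of the peak caller, and weaker signals at the other TSSs were not detectable.

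Cover by peaks rose to a narrow maximum at the isolated TSSs. The TSS base itself lay under a peak at 14.9% of them in replicate 1 and 15.2% in replicate 2, against 4.59% and 4.68% at 3 kb upstream. Coding TSSs reached 61.6% and 62.0%. Isolated TSSs with CpG-rich sequence reached 47.7% and 47.2%, and CpG-poor ones 11.9% and 12.2%.

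**Figure D1:**
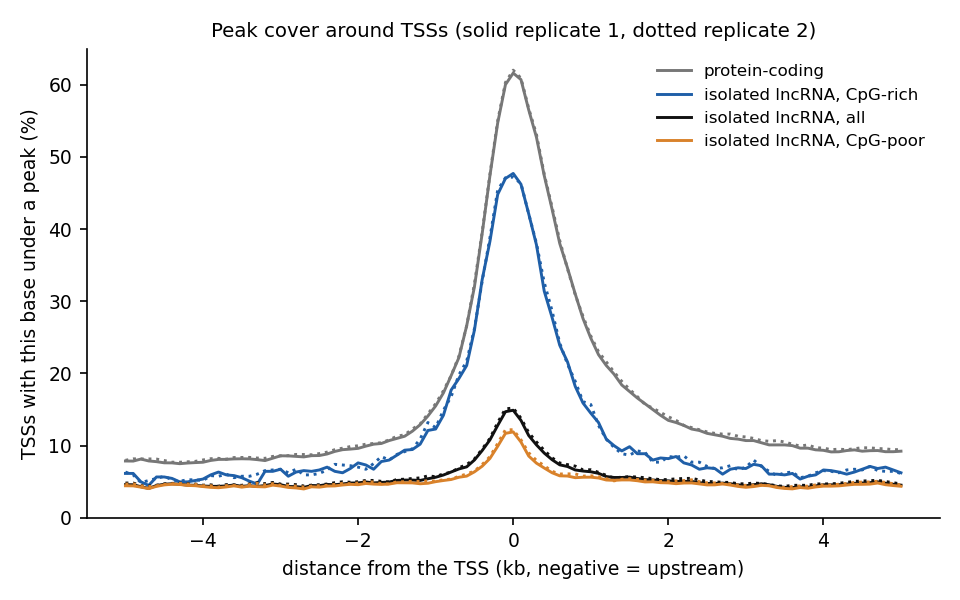
Share of TSSs at which the base at a given distance lay under a peak (vertical axis, %), by distance from the TSS (horizontal axis, kb), for coding genes and for isolated lncRNA genes, all of them and by CpG class, with replicate 1 solid and replicate 2 dotted. All curves peak at the TSS, at 61.6% for coding genes, 47.7% for CpG-rich and 11.9% for CpG-poor isolated lncRNA genes in replicate 1, and the replicates lie on each other.

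The share of open isolated lncRNA TSSs differed widely with CpG content. A TSS was called CpG-rich when the 500 bp on each side had a CpG observed/expected ratio of at least 0.6 and a GC content of at least 50%. Only 1025 isolated lncRNA TSSs, or 8.41%, were CpG-rich, against 45.4% of lncRNA TSSs near coding genes and 58.6% of coding TSSs. Of the CpG-rich isolated TSSs, 596 were open, or 58.1% (55.1 to 61.1%), and of the 11166 CpG-poor ones 2862, or 25.6% (24.8 to 26.4%). The difference was 32.5 percentage points. By CpG ratio, the share was 18.5% (16.3 to 20.9%) of TSSs with a ratio under 0.1 and 60.7% (55.4 to 65.8%) of those over 0.8, with values between these in the classes between. The intervals of neighbouring classes overlapped between 0.2 to 0.3 (26.4%) and 0.3 to 0.4 (28.4%), and between 0.6 to 0.8 (52.2%) and over 0.8.

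At a like CpG content the isolated lncRNA TSSs still were open less often than coding ones. With a ratio over 0.8, 92.3% (91.6 to 93.0%) of coding TSSs were open, and with a ratio under 0.1, 26.8% of them (upper limit 31.1%). CpG-rich coding TSSs were open in 89.7% (89.2 to 90.3%) and CpG-poor ones in 48.6% (47.5 to 49.7%). LncRNA TSSs near coding genes, where peaks of coding promoters can be counted too, stood close to these. Their shares were 88.3% (87.0 to 89.4%) and 47.8% (46.2 to 49.5%). CpG-rich sequence made up 17.2% of open isolated lncRNA TSSs and 72.3% of open coding TSSs.

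Part of the CpG-rich isolated TSSs lie in sequence that occurs more than once in the genome. How reads that map to several places were treated is not given in the sources used here. At 244 of them, or 23.8%, at least 50% of the sampled words of 32 bases within 500 bp occurred again elsewhere, against 1.84% of CpG-rich coding TSSs. These were open in 42.6% (36.6 to 48.9%), and the remaining 781 in 63.0% (59.6 to 66.3%). Among CpG-rich coding TSSs of unique sequence, 90.5% were open, and among those of repeated sequence 46.6% (39.9 to 53.4%), an interval that overlaps that of repeated isolated TSSs. Of the 429 CpG-rich isolated TSSs that were not open, 140 were repeated sequence and 289 were unique, among them MIR155HG, CASC15 and LINC00667.

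**Figure D2:**
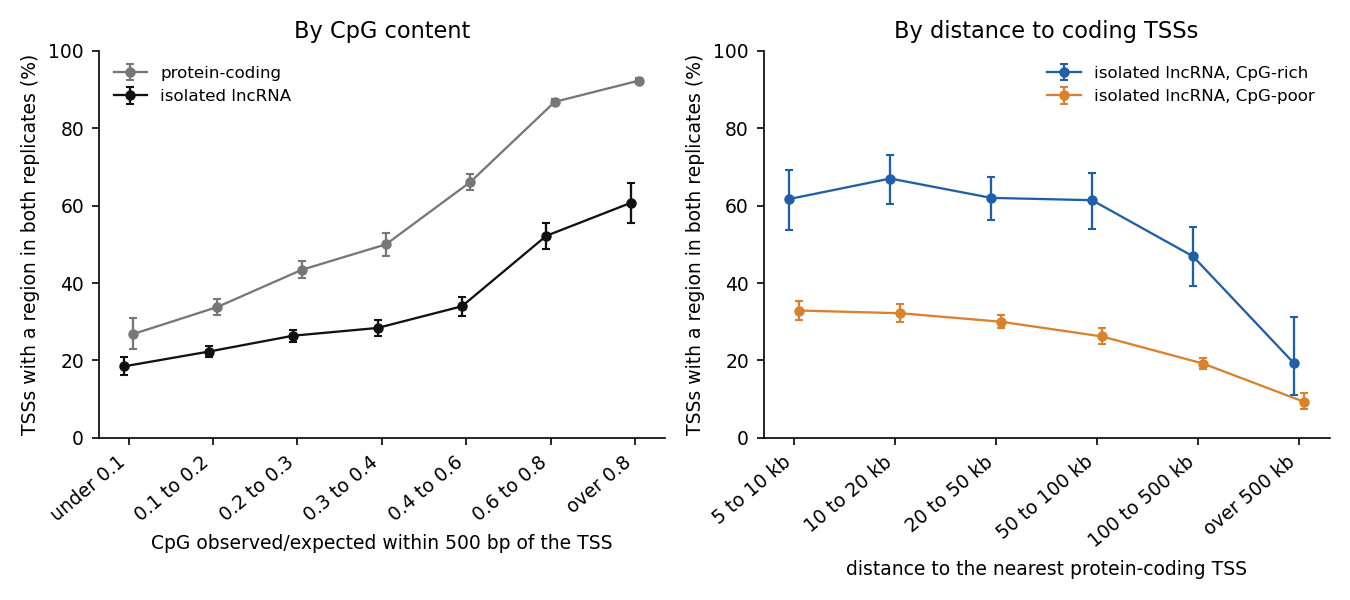
Share of TSSs with a region in both replicates (vertical axis, %, with 95% Wilson intervals), on the left by CpG observed/expected ratio for coding and isolated lncRNA TSSs, on the right by distance to the nearest coding TSS for isolated lncRNA TSSs of each CpG class. Isolated lncRNA TSSs lie below coding ones in every class of CpG content, and the share falls to 19.3% (CpG-rich) and 9.32% (CpG-poor) beyond 500 kb.

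The share of open TSSs was lower far from coding genes than near them, while the intervals up to 50 kb overlapped. The share of open isolated TSSs was 35.7% (33.3 to 38.1%) at 5 to 10 kb, 36.1% (34.0 to 38.4%) at 10 to 20 kb, 33.2% (31.5 to 35.0%) at 20 to 50 kb and 29.3% (27.3 to 31.3%) at 50 to 100 kb. It was 20.6% (19.2 to 22.1%) at 100 to 500 kb and 9.94% (8.16 to 12.1%) beyond 500 kb, below the 12.8% of bases given above. That background covers all bases more than 5 kb from a coding TSS and was not computed by distance. The median distance was 33.4 kb for open and 58.0 kb for the other isolated TSSs. Within the CpG-rich class the share was 61.7% (53.7 to 69.2%) at 5 to 10 kb and 19.3% (11.1 to 31.3%) beyond 500 kb. In the CpG-poor class it went from 32.9% (30.5 to 35.4%) to 9.32% (7.54 to 11.5%). MIR924HG, the host gene of miR-924, is an open promoter far from any coding gene, at 2155 kb from the nearest coding TSS. Its fold enrichment was 27.4 in replicate 1 and 35.4 in replicate 2. SNHG27, an snoRNA host 1422 kb away, was not open, and 71.4% of words at its TSS are repeated in the genome.

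TSSs inside the body of a coding gene were open somewhat less often than those outside. The share was 29.4% (28.4 to 30.3%) for the 9138 TSSs outside coding genes, 24.5% (21.8 to 27.3%) for the 924 inside one on the same strand and 25.8% (24.0 to 27.7%) for the 2129 on the opposite strand. CpG-rich sequence was found at 10.3% of TSSs outside and 2.82% of those inside. Genes with more annotated transcripts had a somewhat higher share, 26.6% (25.6 to 27.6%) with a single transcript and 36.7% (33.1 to 40.6%) with over 10. Isolated genes that have an Ensembl identifier and no symbol, 8768 of the 12191, were open in 26.7% (25.8 to 27.6%), and LINC genes in 30.9% (29.0 to 33.0%).

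Open isolated lncRNA promoters were weaker than open coding promoters. Strength was taken as the fold enrichment of the strongest peak of the region within 1 kb of the TSS, which is the stacked reads at the highest base of the peak over the background of the peak caller. The median was 17.7 in replicate 1 and 17.9 in replicate 2 for isolated lncRNA TSSs, or a height of 76.0 and 80.0 stacked reads. For coding TSSs it was 48.5 and 50.4. Isolated lncRNA to coding medians stood at a ratio of 0.360 ± 0.00683 (SD, n = 2), a difference larger than that between the replicates. It was 0.611 when only TSSs with the base itself under a peak were counted. Between CpG-rich TSSs the ratio was 0.811 ± 0.0160 (SD, n = 2), with medians of 43.6 and 46.5 for isolated lncRNA and 54.5 and 56.6 for coding TSSs. Between CpG-poor TSSs it was 0.494 ± 0.00295 (SD, n = 2), with medians of 14.3 and 14.6 against 29.0 and 29.4. These classes were not matched in CpG ratio. With a ratio under 0.1, isolated and coding medians were 10.1 and 9.89 in replicate 1 and 10.5 and 10.6 in replicate 2. At 0.3 to 0.4 they were 17.1 and 29.2, and 17.1 and 29.3. Over 0.8 they were 49.5 and 53.8, and 54.8 and 56.2. In the remaining classes the isolated median was also lower in both replicates.

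The range within the isolated lncRNA promoters was wide. Fold enrichments spanned 2.99 to 270.4 (replicate 1) and 2.87 to 275 (replicate 2). At 693 of the 3458 TSSs both replicates reached at least 50, and at 47.0% of open coding TSSs. A further 1069, or 30.9%, stayed under 10, against 8.93% of open coding TSSs. CpG-rich sequence was more frequent among the strong than among the weak. It was found at 37.0% of the strongest 500 and at 17.2% of all open isolated TSSs.

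**Figure D3:**
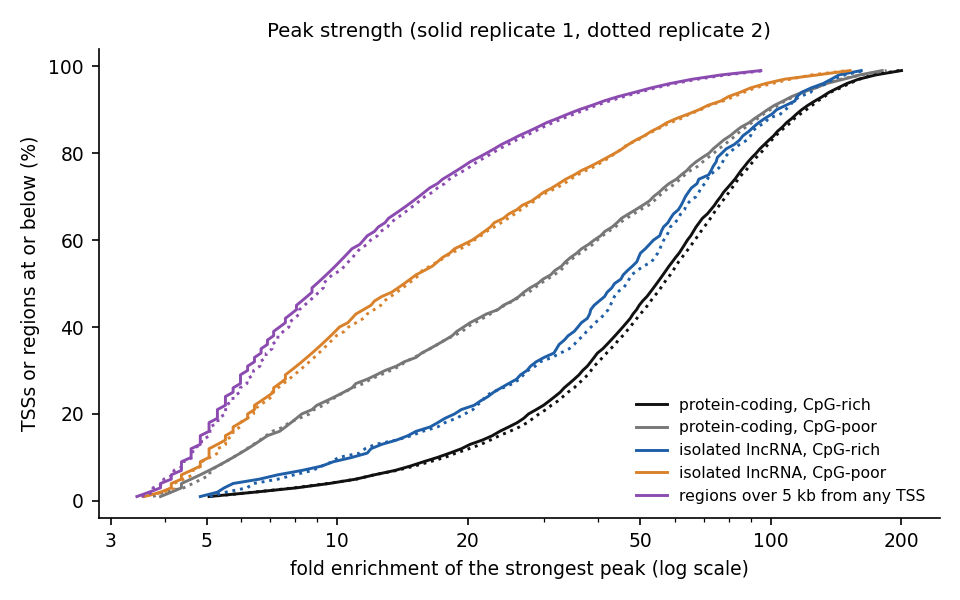
Cumulative share (vertical axis, %) of open TSSs, or of regions over 5 kb away from every TSS, at or below a given fold enrichment (horizontal axis, log scale), by CpG class, with replicate 1 solid and replicate 2 dotted. CpG-poor isolated lncRNA promoters, with medians of 14.3 and 14.6, lie between the regions far from TSSs and the CpG-poor coding promoters, while CpG-rich isolated lncRNA promoters, with 43.6 and 46.5, lie just left of the CpG-rich coding ones.

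The regions themselves were also narrower than those of coding genes. The 3914 regions had a median width of 458 bp (quartiles 299 and 825 bp), against 973 bp for the 14989 regions at coding TSSs and 336 bp for the 117369 regions further than 5 kb from all annotated TSSs. Regions at CpG-rich isolated TSSs had a median width of 848 bp and those at CpG-poor ones of 423 bp. Each region at its strongest point had a median fold enrichment of 13.6 and 13.9, against 8.97 and 9.29 for the regions far from TSSs. The CpG-poor set, with 11.3 and 12.2, was near that level. Of the 3914 regions, 61 were wider than 3 kb, and the widest, at NEAT1, measured 10394 bp.

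Only part of the regions covered the TSS base. A region lay over the TSS of 1839 open isolated genes, or 53.2%, upstream of it for 23.5% and downstream for 23.3%. Over coding genes the shares were 85.5%, 5.88% and 8.64%. The TSS was covered at 82.0% of CpG-rich and 47.2% of CpG-poor open isolated TSSs. Whether an uncovered region is the promoter or another element near it cannot be told apart from these data. LncRNA genes also shared regions, since 252 regions served 460 genes. Of these, 206 regions had genes on both strands, and in 117 of them the genes ran away from each other, with a median of 199 bp between their TSSs. Such head-to-head regions had median fold enrichments of 43.7 and 43.1, against 12.9 and 13.3 for regions with a single isolated gene. These sets were not matched for CpG class or width. Regions at CpG-rich isolated TSSs of any arrangement had medians of 33.8 and 36.4, and those at CpG-poor ones 11.3 and 12.2.

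CpG-rich sequence was found at 3 of the 10 strongest isolated genes, against 17.2% of all open ones. The 10 genes with the best mean rank over both replicates were TALAM1, LINC01843, ENSG00000286010, LINC02912, ENSG00000285646, ENSG00000289975, HCG25, MIR9-1HG, ENSG00000290061 and ENSG00000290057. Of these, 5 have no symbol, as have 2341 of all 3458 open isolated genes. NEAT1, which is CpG-rich, shares a region with the last of the 10, ENSG00000290057, and had the same values of 189 and 212. TALAM1, an antisense transcript of MALAT1, lies at chr11:65499312-65507432 on the reverse strand. In replicate 1 its peak stacked 1174 reads (1108 to 1243, exact Poisson 95% interval), or 270.4 times background. In replicate 2 it stacked 1167 reads (1101 to 1236), or 258 times background. The region, from 65500030 to 65510047, is 10018 bp wide, covers most of the gene and runs past its TSS. LINC01843, at chr5:134506552-134509230 on the forward strand, stacked 1127 reads (1062 to 1195), or 259.5 times background, in replicate 1 and 1241 (1173 to 1312), or 275 times, in replicate 2. Its peak, from 134505741 to 134507163 in replicate 1, covers the TSS shown above with 3 CG. For both genes the difference between the replicates was small beside the values themselves. Intervals for heights and shares cover counting error only.

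ENSG00000286010 had fold enrichments of 253 and 234 and LINC02912 of 236 and 243. Both lie on chromosome 8 in the surroundings of MYC and PVT1. The paper reports copy-number aberrations in CAMA-1, and no fold enrichment given here was scaled to DNA copy number. The part of copy number in the order of genes was not tested. ENSG00000285646, at chr1:11907940-11914298, had values of 244 and 225. HCG25 and ENSG00000289975, on chromosome 6 in the HLA region, run away from each other out of a single CpG-rich region with values of 211 and 195. MIR9-1HG, a host of miR-9 at chr1:156404250-156456763 on the reverse strand, reached 221 and 191. The 5 best CpG-poor genes are the first 5 of the 10.

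The stretch from NEAT1 to MALAT1 on chromosome 11 held several of the strong promoters. NEAT1 RNA is the scaffold of paraspeckles and MALAT1 RNA is a component of nuclear speckles. Between TSS positions 65421448 and 65507432, over 86.0 kb, 11 isolated lncRNA genes are annotated, and 11 were open, through 8 regions that some of them share, against 28.4% of all isolated genes. This stretch was chosen after its values were seen. NEAT1 had fold enrichments of 189 in replicate 1 and 212 in replicate 2 in a region from 65420881 to 65431274, which it shares with ENSG00000290057. MALAT1 (ENSG00000251562.11) had 176 and 164, in a region from 65495854 to 65499757. LINC02736, ENSG00000286756 and ENSG00000290061 lie between them on a region of 7863 bp, with fold enrichments of up to 200.4 and 209. The weakest was ENSG00000291174, with 64.7 and 70.8, still above the median of coding TSSs in both replicates. Of the 11 TSSs, 3 were CpG-rich. Several regions overlap gene bodies on both strands, so that a region near a TSS here can belong to the body of a neighbour.

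Of the lncRNAs linked to breast cancer or the estrogen receptor, 14 were isolated and 13 of them were open, against 28.4% of all isolated genes. Their median fold enrichments were 25.8 and 25, against 17.7 and 17.9 over all open isolated genes. LINC01488, also named CUPID1, lies upstream of the cyclin D1 gene on chromosome 11 and was the strongest of the 14, with 147 and 151 at heights of 640 (591 to 692) and 680 (629.8 to 733). DSCAM-AS1, an estrogen receptor-dependent lncRNA of luminal breast cancers, lies antisense within DSCAM and had 62.4 and 62.6, at heights of 270 (239 to 304) and 282 (250.0 to 317). LINC02568 had 62.8 and 61.7, LINC00472 59.1 and 58.2, and LINC00885 56.1 and 65.0. The order of these 4 was not the same in both replicates.

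The remaining breast lncRNAs were weaker. LINC00160 had 30.1 and 26.8, LINC00052 25.8 and 25, LINC01116 23.7 and 21.2, LINC00511 15.4 and 14.8, and LINC00504 10.1 and 11.1. BCAR4, named for antiestrogen resistance, had 14.0 and 20.1 and was the least even between the replicates. LINC01016 (9.20 and 9.51) and UCA1 (5.75 and 6.41) were the weakest of the open ones. Only 2 of the 14, LINC00472 and LINC01116, were CpG-rich. LINC00511 was stronger at another of its 84 annotated TSSs, with 92.7 and 93.5. LINC01087 had no peak in replicate 1 and a peak of 4.64 in replicate 2 and was not open. The list was chosen with earlier results of these data known and is not independent evidence that breast lncRNAs are open more often than others.

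Broadly expressed and nuclear lncRNAs were open at 10 of 13 isolated TSSs, against 28.4% of all isolated genes, with median fold enrichments of 75.7 and 74.6, against 17.7 and 17.9. Of the 13, 10 were CpG-rich and 8 of those were open, against 58.1% of all CpG-rich isolated TSSs. DANCR, a host of snoRNAs at chr4:52712325-52723623, had 146 and 152. KCNQ1OT1, an imprinted RNA that silences neighbouring genes in cis, starts antisense inside KCNQ1 and had 101 and 93.3. LINC00265 had 96.4 and 92.9, DLEU2 55 and 56.2, PVT1 49.9 and 54.2, EPB41L4A-AS1 46.5 and 46.4, and NORAD, which binds PUMILIO proteins, 41.0 and 42.2. PVT1, a neighbour of MYC, reached 252 and 283 at another of its TSSs. CYTOR had only 5.98 and 7.08 at its most 5′ TSS, where 75.5% of words are repeated in the genome. CASC15, LINC00963 and LINC00667 were not open there. At another annotated TSS, CASC15 had 58.7 and 65.5 and LINC00963 84.2 and 74.5, so the most 5′ TSS is not where these genes were open.

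**Figure D4:**
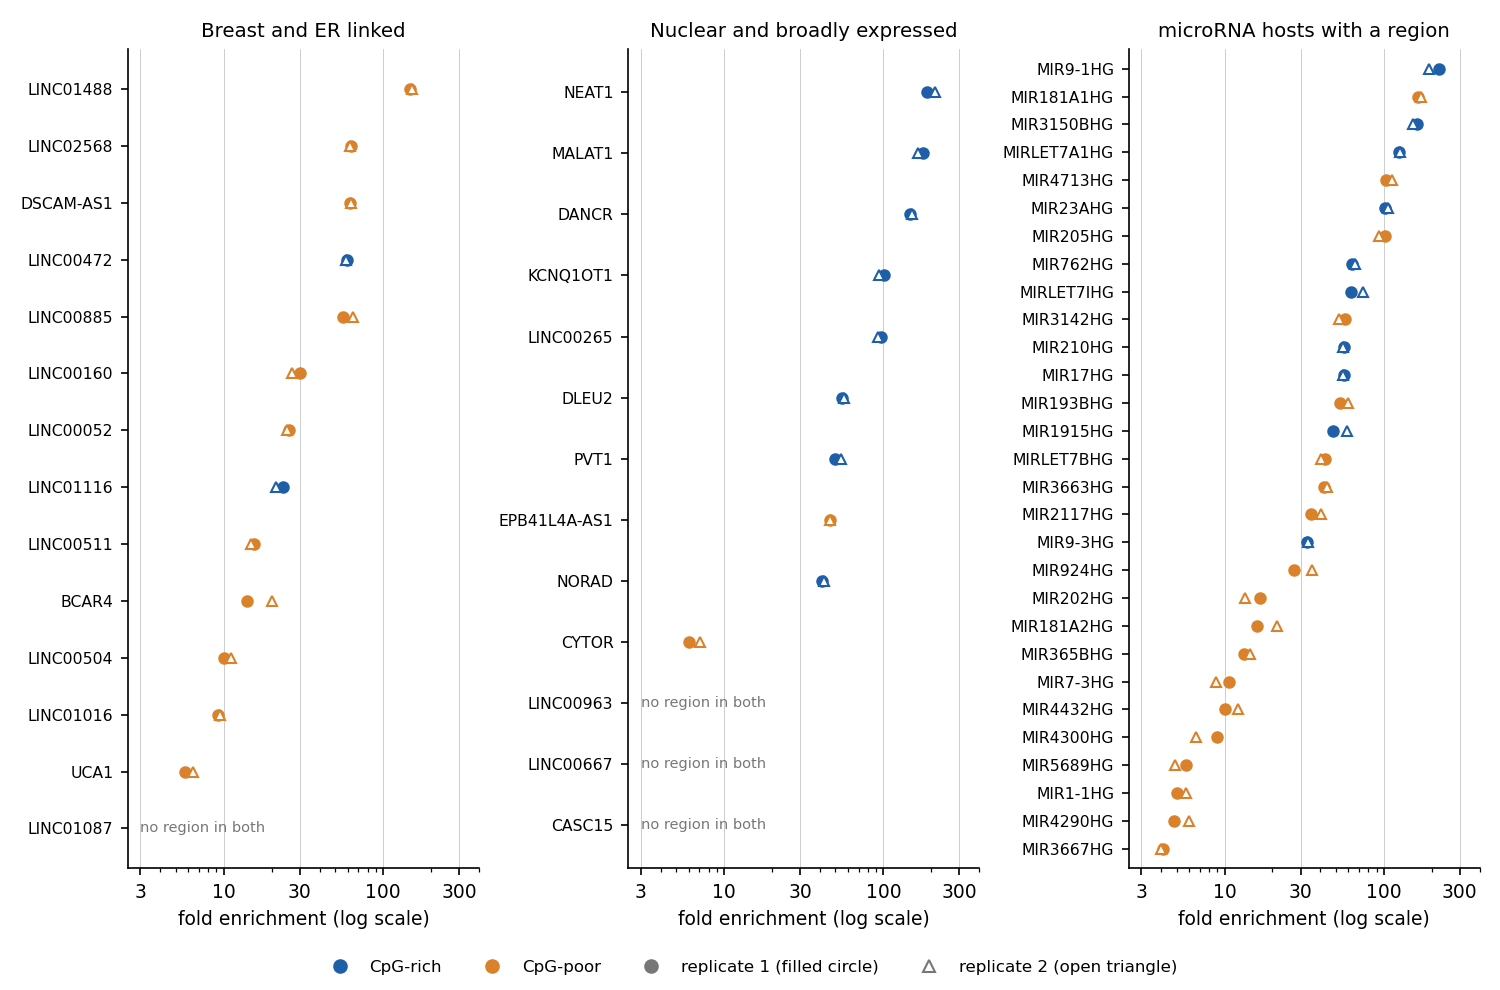
Fold enrichment (horizontal axis, log scale) of the strongest peak at the most 5′ TSS of each isolated lncRNA gene of 3 lists, in replicate 1 (filled circles) and replicate 2 (open triangles), with CpG-rich TSSs in blue and CpG-poor ones in orange. The genes run from 3.98 (MIR3667HG, replicate 2) to 221 (MIR9-1HG, replicate 1), and the replicates of a gene lie close together on this range.

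Host genes of small RNAs, whose introns or exons yield microRNAs or snoRNAs, were open in 42 of 78 cases, or 53.8% (42.9 to 64.5%), against 28.4% of all isolated genes. Of the hosts, 28 were CpG-rich and 21 of these were open, against 58.1% of all CpG-rich isolated TSSs. Of the 50 CpG-poor hosts 21 were open, against 25.6% of all CpG-poor isolated TSSs. Among snoRNA hosts of the SNHG series, 13 of 15 were open, with median fold enrichments of 60.5 and 69.9 and 11 of the 13 CpG-rich. SNHG15 had 90.4 and 97.3, SNHG25 85.4 and 90.7, SNHG21 78.7 and 86.0, and SNHG12 74.6 and 98.6. SNHG14, in the imprinted Prader-Willi region, and SNHG27 were the 2 that were not open.

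Of the microRNA hosts 29 of 63 were open, or 46.0%, against 28.4% of all isolated genes. Their median fold enrichments were 42.8 and 44, against 17.7 and 17.9 over all open isolated genes. After MIR9-1HG, the strongest were MIR181A1HG with 163 and 172 and MIR3150BHG with 161 and 152. MIRLET7A1HG, host of let-7 members, had 124 and 127, and MIR23AHG 101 and 106. MIR205HG, host of the epithelial miR-205, had 101 and 93.5 although its TSS is CpG-poor. MIR17HG, host of the miR-17-92 cluster, had 55.9 and 55.7, and MIR210HG, host of the hypoxia-linked miR-210, had 56.1 and 55.5. Among the 34 hosts that were not open at their most 5′ TSS were MIR155HG, known from activated lymphocytes, MIR122HG, known from liver, and MIR137HG, known from neurons, whereas MIR9-1HG, whose microRNA is also known from neural cells, was open. The CpG-rich hosts MIR31HG and MIR34AHG were not open there either. MIR34AHG was open at another TSS with 19.3 and 20.6, and MIR99AHG with 36.1 and 44.2. MIR29B2CHG was open only at another TSS, with 85.8 and 103.

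Of the 8 isolated genes of the imprinted and developmental list, 1 was open at the most 5′ TSS, against 28.4% of all isolated genes, and 3 were open at any annotated TSS, against 31.9% of all. The open one, ESRG, had 9.20 and 7.74 in a TSS region where 73.5% of words are repeated. H19 and MEG3, maternally expressed imprinted genes, MEG8, RMST, DLX6-AS1, LINC-ROR and LINC00261 were not open at the most 5′ TSS. MEG3 reached 8.51 and 9.29 and MEG8 9.43 and 7.74 at other TSSs. KCNQ1OT1, described above with the nuclear lncRNAs, is imprinted too and was open.

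LncRNAs of other tissues were not uniformly closed. Of the blood list, 0 of 8 isolated genes were open at the most 5′ TSS, against 28.4% of all isolated genes, and 3 were open at any annotated TSS, against 31.9% of all. The 3 were LINC00926, LINC01094 and LINC00861, with 47.6 and 49.8, 30.4 and 29.4, and 8.28 and 8.62. Against the same 28.4%, the prostate list was open at 3 of 3 genes, PCAT14 with 96.9 and 101, PCGEM1 with 11.7 and 12.4 and SCHLAP1 with 5.06 and 4.64. Of the liver list, LINC01093 of 3 genes was open, with 35.2 and 28.7. Of muscle, heart and brain, 4 of 4 were open, MIAT with 81.7 and 87.6, LINC01122 with 14.0 and 15.5, LINC00689 with 6.90 and 7.08 and LINCMD1 with 6.90 and 4.20. These lists are short, and their counts are descriptions of the genes named.

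The label of the cells was checked against coding markers. Of 10 luminal epithelial markers, 9 were open at the most 5′ TSS, against 72.7% of all coding TSSs, and 10 when every annotated TSS was counted, among them KRT8, EPCAM, FOXA1 and XBP1, and ESR1 was open with 31.3 and 32.5 at a TSS other than its most 5′ one. Of the blood markers reported here, CD14 was open (47.9 and 52.6), while PTPRC, CD3E, CD79A and SPI1 were not. These calls are for the most 5′ TSS, and the count over every annotated TSS is not reported here for this list. Of 6 fibroblast and endothelial markers, 4 were open at the most 5′ TSS, against the same 72.7%, and 5 when every annotated TSS was counted, with COL1A1 at 73.4 and 67.2 and CDH5 at 61.0 and 60.8, and PECAM1 was not. Open TSSs were thus not restricted to luminal markers, and the part of other cells in the lncRNA results was not tested.

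GC box matches differed more between the CpG classes than between open and other promoters. Matches in the promoter window of 300 bp were counted on both strands, and a GC box and an AP-2 match can overlap. The GC box was present in 23.6% of open and 9.66% of other isolated lncRNA promoters, against 62.7% of open coding promoters and 27.6% of the promoters of all autosomal genes. Within the CpG-rich class the shares were 72.5% for open and 55.5% for other isolated promoters, and within the CpG-poor class 13.4% and 7.30%. AP-2 (GCCNNNGGC), the motif of the TFAP2 factors of mammary epithelium, was found in 12.3% of open and 6.61% of other CpG-poor isolated promoters, against 16% of all promoters. CTCF (CCNCNAGNNGGC) was found in 2.69% and 0.686% of these and in 2.19% of all promoters. In the CpG-rich class CTCF stood at 4.36% and 3.96%.

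AP-1, FOX and GATA motifs showed little or the opposite difference. AP-1 (TGANTCA) was present in 13.5% of open and 12% of other CpG-poor isolated promoters, against 8.17% of all promoters. FOX (TGTTTAC) was present in 5.63% and 5.01% (3.92% of all), and the motif of GATA factors (AGATAAG) in 3.07% and 4.67% (3.11% of all). The TATA box (TATAAA, forward strand, beginning 40 to 20 bp before the TSS) was found in 1.29% and 1.85% (1.83% of all). YY1 (AAGATGGCG) was rare at isolated lncRNA promoters, with 0.289% of the open ones against 2.54% of open coding promoters and 1.08% of all. ETS (CCGGAAG) stood at 4.95% of open and 2.47% of other isolated promoters (6.10% of all) and the estrogen response element at 0.0868% and 0.0916% (0.0453% of all). By class, ETS stood at 15.1% of open and 14.5% of other CpG-rich promoters and at 2.83% and 1.85% of CpG-poor ones. NRF1 (GCGCATGCG) stood at 0.694% and 0.504% (1.11% of all). Within the CpG classes its direction was the opposite, with 2.85% of open and 5.13% of other CpG-rich promoters and 0.245% and 0.265% of CpG-poor ones. The CCAAT box stood at 34.2% and 38.4% (36.2% of all). By class it stood at 29.5% of open and 24.7% of other CpG-rich promoters and at 35.2% and 39.1% of CpG-poor ones.

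Around the midpoints of the regions, within 100 bp, CpG-poor lncRNA regions were closer to regions far from TSSs than to regions at CpG-poor coding TSSs in AP-1 and GC box matches. In GATA matches they were closer to the latter, and in FOX matches they lay about midway between both sets. AP-1 was present in 12% of the 3288 CpG-poor lncRNA regions, 11.4% of the regions further than 5 kb from every TSS and 7.83% of regions at CpG-poor coding TSSs. The GC box was present in 9.85%, 4.74% and 23.9% and CTCF in 3.98%, 3.53% and 3.43%. FOX was present in 4.81%, 6.71% and 3.11% and GATA factor motifs in 1.89%, 2.65% and 1.64%. Among CpG-poor lncRNA regions, AP-1 matches stood at 8.67% (6.33 to 11.8%) of those with fold enrichments of at least 50 in both replicates and 13.2% (11.5 to 15.1%) of those under 10. AP-2 went the other way, with 15.7% (12.5 to 19.5%) and 9.53% (8.09 to 11.2%). The CCAAT box stood at 21.0% (17.3 to 25.1%) of the strong and 28.1% (25.8 to 30.5%) of the weak ones.

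The difference between isolated lncRNA and coding TSSs was found on each chromosome. The share of open TSSs was lower for isolated lncRNA genes on 22 of 22 autosomes, and so was the median fold enrichment in both replicates. The share was highest on chromosome 22, with 37.9% of 290 TSSs, and lowest on chromosome 18, with 18.7% of 406. The median fold enrichment was highest on chromosome 7 in replicate 1 (23.9) and on chromosome 22 in replicate 2 (25.5), and it was lowest on chromosome 13 in replicate 1 (10.7) and on chromosome 21 in replicate 2 (10.7). These medians were not scaled to DNA copy number. Of CpG-rich TSSs alone, the share was lower than for coding TSSs on 22 autosomes, and the median strength was lower in both replicates on 17 and higher in both on 5.

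**Figure D5:**
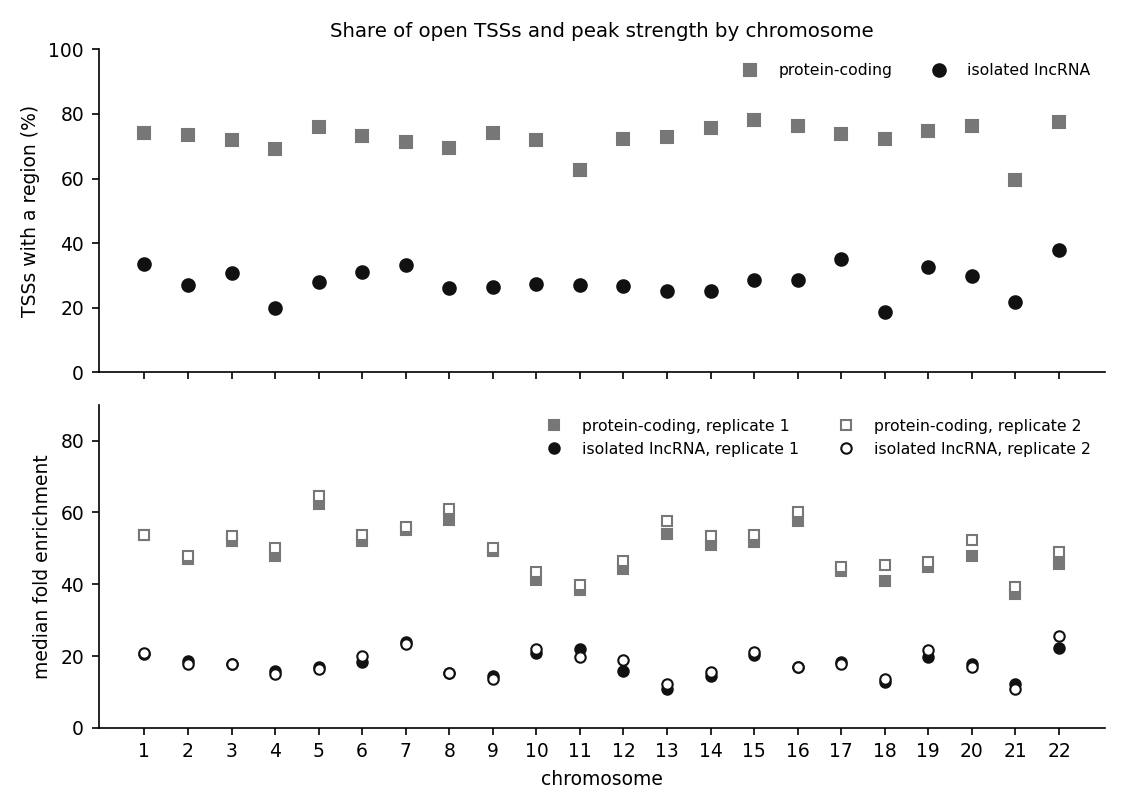
Share of TSSs with a region in both replicates (top, %) and median fold enrichment (bottom, replicate 1 filled, replicate 2 open) for isolated lncRNA and coding TSSs on each autosome. The isolated lncRNA points lie below the coding points on each of the 22 autosomes, between 18.7% and 37.9% in the top panel.

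The replicates ranked the isolated lncRNA promoters alike. Across the 3458 open TSSs, fold enrichments had a Spearman correlation of 0.975, which describes genes within 1 cell line. The median difference between the replicates was 0.149 on the log2 scale, and 16 TSSs differed by more than 2-fold, among them LINC00572 (135 and 52.6) and A2ML1-AS1 (8.51 and 21.9). By whole region, only 6 of 3914 did, since a wide region can be split into several peaks in 1 replicate, of which a different one lies within 1 kb. ENSG00000287269 shows this, with 39.8 and 121 at its TSS in a region of 10290 bp whose strongest peaks were 113 and 121. At the limits of the rule, ENSG00000267232 at 5001 bp from a coding TSS was included (71.6 and 79.4), and ENSG00000261292 at 4998 bp was not and had no peak. The region of ENSG00000286654, 990 bp from its TSS, was counted (7.13 and 8.18), and that of OR7E47P, at 1001 bp, was not (21.2 and 20.3).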

How the data were processed

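Chromatin accessibility of CAMA-1 was read from the peak lists of 2 biological replicates. According to the submitters' processing notes and the paper's methods, the authors trimmed reads with Trim Galore (version 0.6.5), aligned them with Bowtie2 (version 2.3.5.1) to hg38 and called peaks with MACS2 (version 2.2.6) in each replicate. MACS2 settings, the treatment of duplicate and multiply mapped reads and excluded regions are not given in the sources used here. Per peak, the authors deposited a score, a fold enrichment (the ratio of stacked reads to background) and p-values and q-values as −log10. No read counts were used and the depth of the libraries is not in the lists. Replicate 1 held 245736 peaks and replicate 2 held 259745, all within hg38 chromosome ends. Heights were derived from the step between deposited fold enrichments, 0.230 and 0.221. In data simulated with such steps the approach recovered 100% of the heights, which checks the code alone. Values were not scaled to DNA copy number.

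Overlapping peaks (at least 1 bp) were merged and compared with GENCODE release 44. Wilson and exact Poisson intervals were computed at 95%. Of 2000 simulated TSSs, 600 were given a region and 600 were found. The simulated peaks lay only near these TSSs, so this too checks the code alone. Words of 32 bases, sampled every 20 bases within 500 bp of a TSS, were counted in hg38 on both strands. Genes were named by a rule: the 10 best isolated lncRNA genes and the 5 best CpG-poor ones by mean rank of fold enrichment, fixed lists, and those nearest the limits. A further part of this rule, on genes in soft-masked repeats, was not run since the genome used carries no soft-masking. The members, the lists and the tests were chosen with earlier results of these data known. Alternatives were thresholds, distances, TSS choices, overlaps and the omission of each replicate. Python 3.11.15, numpy 2.4.6, pandas 2.3.3, scipy 1.17.1, pysam 0.24.0 and matplotlib 3.10.9 were used. The other models and assays of the study were not analysed here. Some items of the lists are not reported here.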

Additional observations from a re-analysis of the deposited data

How the results depend on the processing

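Over 4 results, 48 alternatives were computed. The results were the share of open isolated TSSs, the number of regions, the ratio of median fold enrichment to coding TSSs, and the difference in share between CpG-rich and CpG-poor TSSs. The share and the number have no direction that could reverse. For the ratio and the difference, 0 alternatives reversed the direction. Of the 48, 18 stayed within the SD of the replicates, or within a factor of 1.5 for the number of regions. The other 30 moved further. The share of 28.4% was 24.4% among peaks of −log10 q 10 or more, 22.9% within 500 bp, 13.8% with the TSS base under a peak, 27.3% beyond 10 kb from coding TSSs, 30.8% with genes of transcript support level 1, 29.4% outside coding gene bodies, 27.4% with a reciprocal overlap of 50%, 29.6% with unique sequence and 31.9% with any annotated TSS. The last 2 were chosen after the data were seen. The number of regions, 3914, was 1555 with the TSS base under a peak and 543 with support level 1, fewer by construction. The ratio of 0.360 was 0.448 at the same −log10 q, 0.396 within 500 bp, 0.611 with the TSS base under a peak, 0.465 with support level 1, 0.410 outside coding gene bodies and 0.245 with −log10 q as the measure. The difference of 32.5 percentage points was 35.3 at that −log10 q, 34.0 within 500 bp, 35.9 with the TSS base under a peak, 33.0 beyond 10 kb, 34.3 with support level 1, 37.4 with a CpG ratio of at least 0.75 and a GC content of at least 55%, and 36 with unique sequence. What caused these shifts was not tested. Peaks of 1 replicate alone gave a share from 30.0 to 31.1%, a number of regions from 4313 to 4494, a ratio from 0.309 to 0.341 and a difference from 31.1 to 31.7 percentage points. These shares and numbers are higher by construction, as the other replicate was not required.

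No paired analysis was possible because CAMA-1 was measured in 1 condition, so no groups share replicate numbers. With 2 replicates the SDs are rough, and the peak lists limit the report to signals past the threshold of the peak caller. The most 5′ annotated TSS need not be the one CAMA-1 uses, and no RNA was examined here.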
